A study of Mus musculus with 76 samples.

Results

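The genes described here are 10 target genes of the hypoxia-inducible factors (HIF) that are not enzymes of glycolysis: Vegfa, Adm, Slc2a1, Car9, Bnip3, Ndrg1, Ankrd37, P4ha1, Egln3 and Kdm3a. They were chosen by symbol, were matched to the count table by gene identifier, and are 10 of the 55536 genes in it. All 10 passed the filter on low counts that was applied over all tumors, which 14646 genes passed. Their level was measured in 38 whole tumors grown under the skin of BALB/c mice, which fall into 7 groups. CT26, a colorectal carcinoma line, was inoculated as 1000000 cells, and its tumors were given CAT-ABP + alum (n = 6) or alum alone (n = 5). 4T1, a mammary carcinoma line, was inoculated as 500000 cells, and its tumors were given CAT-ABP + alum (n = 6) or alum alone (n = 5). The other 3 groups used sublines of 4T1, inoculated in the same number and grown in mice kept on a doxycycline diet from day 4. 4T1-CAT cells carry a lentiviral, doxycycline-inducible catalase with GFP, and their tumors were given CAT-ABP + alum (n = 5) or only alum (n = 5). 4T1-control cells carry the inducible GFP without catalase, and their tumors were given alum (n = 6). CAT-ABP is catalase joined to a peptide that binds aluminum hydroxide (alum) particles, so that the enzyme stays where it is injected. It serves as extracellular catalase (EC CAT), and the inducible enzyme of 4T1-CAT cells serves as intracellular catalase (IC CAT). By the labels, every tumor was injected on day 6 with 100 µg alum, with or without 20 µg CAT-ABP, and was harvested on day 8, and the study's methods give later days for the diet, injection and harvest. The doxycycline diet and the engineering were shared by 4T1-CAT and 4T1-control tumors and were absent from CT26 and 4T1 tumors.

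HIF is a transcription factor made of an oxygen-regulated alpha subunit and a constant beta subunit. When oxygen is plentiful, prolyl hydroxylases mark the alpha subunit for binding by the VHL ubiquitin ligase and for destruction, and when oxygen is scarce the alpha subunit persists, enters the nucleus and binds hypoxia response elements with the core ACGTG or GCGTG. Its targets promote vessel growth, glucose uptake, control of pH, mitophagy, collagen folding and feedback on HIF itself, and they are widely used as readouts of hypoxia in solid tumors. Hydrogen peroxide, the substrate of catalase, has also been linked to HIF stability.

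The HT3DGE method used for sequencing counts transcripts near their 3′ end, and each tumor was sequenced as 2 technical libraries whose counts were added. Total counts per tumor lay between 493044 and 9077549 (median 4827388). Of the 76 libraries, 7 held under 518752 counts, of which 4 came from 4T1-control tumors. Levels are given below as counts per 1000000 counts (CPM), normalized by the TMM method over all 38 tumors, and they are not compared between genes. Sequencing pools were inferred here from the first part of each library's index tag. The sample labels do not name pools, and every mention of pools below means these inferred ones. The tags put all CT26 tumors, all 4T1 tumors given CAT-ABP + alum and 2 of the 5 4T1 tumors given alum in 1 pair of pools. All other tumors fell in a second pair. Epithelial markers (6 measured of 7 listed, among them Epcam and Krt8) summed to between 18.5 and 32.1 CPM in CT26 tumors and to between 1478 and 2747 CPM in tumors of the 4T1 lines. The inducible human transgene was not analysed here. Tumors are the replicates, and every p-value measures the spread between tumors. In RNA from whole tumors, fewer cells of a type and less RNA per cell cannot be told apart.

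Promoter sequences are shown first, because HIF binds elements with the core ACGTG or GCGTG. RefSeq windows of the 250 bases before the gene start (GRCm38.p6) were at hand for 9 members, all but Ndrg1, as 12 windows, since Vegfa had 2 and Kdm3a had 3 starts. The 5-base cores ACGTG and GCGTG were searched on both strands, so that on the other strand they read CACGT and CACGC. A core was present in 9 of the 12 windows, against 12679 of 32851 promoter windows in the whole table (38.6%). The ACGTG core alone was present in 7 of the 12 windows, against 16.6% of all windows. For Vegfa, the window at the first start, 8 bases from a GENCODE start, held 0 cores. Its second start lay 282 bases from the nearest GENCODE start, and that window held 2 cores, 1 of them ACGTG. This second window lies inside the annotated span of Vegfa, downstream of the first start. It is counted among the 9 and the 7 windows above. The windows of Kdm3a starts 2 and 3 also held 0 cores. Bnip3 held 5 cores, Ankrd37 held 4 and P4ha1 held 3, whereas Car9 and Egln3 held 1 each. In Car9 the core ended 14 bases before the start, in Egln3 it began 229 bases before it, and in Ankrd37 the nearest core ended 2 bases before it. The Bnip3 window holds the palindrome CACGTG, which counts once on each strand. The 4 windows below belong to Egln3 and Car9, whose levels did not overlap between the lines with CAT-ABP + alum, and to Ankrd37 and Bnip3, which carried the most cores. They are read 5′ to 3′ in the direction of the gene, and capitals mark every base that lies in a core on either strand.
Egln3, chr12:54203875-54204124, minus strand: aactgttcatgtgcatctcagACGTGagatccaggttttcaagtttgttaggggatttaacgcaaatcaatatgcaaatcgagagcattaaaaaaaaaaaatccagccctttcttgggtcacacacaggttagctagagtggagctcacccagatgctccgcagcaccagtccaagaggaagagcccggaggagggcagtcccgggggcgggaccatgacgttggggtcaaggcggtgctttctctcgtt
Car9, chr4:43506776-43507025, plus strand: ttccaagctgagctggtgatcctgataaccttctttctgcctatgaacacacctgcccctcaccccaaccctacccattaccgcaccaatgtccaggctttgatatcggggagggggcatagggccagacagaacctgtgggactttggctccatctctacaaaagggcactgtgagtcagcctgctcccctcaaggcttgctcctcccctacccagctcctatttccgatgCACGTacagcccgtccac
Ankrd37, chr8:45999851-46000100, minus strand: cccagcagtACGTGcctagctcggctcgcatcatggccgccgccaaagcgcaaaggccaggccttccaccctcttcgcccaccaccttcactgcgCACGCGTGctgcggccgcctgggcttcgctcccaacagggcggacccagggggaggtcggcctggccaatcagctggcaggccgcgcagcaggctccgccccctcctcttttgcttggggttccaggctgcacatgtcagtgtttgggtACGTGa
Bnip3, chr7:138909507-138909756, minus strand: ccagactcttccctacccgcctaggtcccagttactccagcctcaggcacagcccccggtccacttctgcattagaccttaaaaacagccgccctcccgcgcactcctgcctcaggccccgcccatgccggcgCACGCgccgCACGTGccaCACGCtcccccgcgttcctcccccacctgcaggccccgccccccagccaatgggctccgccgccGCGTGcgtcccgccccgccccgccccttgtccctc
A match of letters is a description of these windows, and binding was not measured.

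The 10 members are protein-coding genes, at positions given here from GENCODE M21 on GRCm38. Vegfa lies at chr17:46016993-46032369 on the minus strand, Adm at chr7:110627661-110629820 on the plus strand, Slc2a1 at chr4:119108711-119137983 on the plus strand and Car9 at chr4:43506966-43513729 on the plus strand. Bnip3 lies at chr7:138890836-138909519, Ndrg1 at chr15:66929318-66969640 and Ankrd37 at chr8:45996902-46005707, all on the minus strand. P4ha1 lies at chr10:59323296-59373304 on the plus strand, and Egln3 at chr12:54178981-54203860 and Kdm3a at chr6:71588972-71632990 lie on the minus strand. For 6 members, another annotated gene lies over them on the opposite strand. Whether reads were counted by strand is not given in the sources used here, so without strand such pairs could not be separated. Most of these partners drew almost no counts, but Gm45507, antisense to Bnip3, drew 82.2% as many counts as Bnip3, and Ufsp2, which crosses Ankrd37, drew 626% as many as Ankrd37. The levels of Bnip3 and Ankrd37 are therefore uncertain to that extent.

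**Figure D1:**
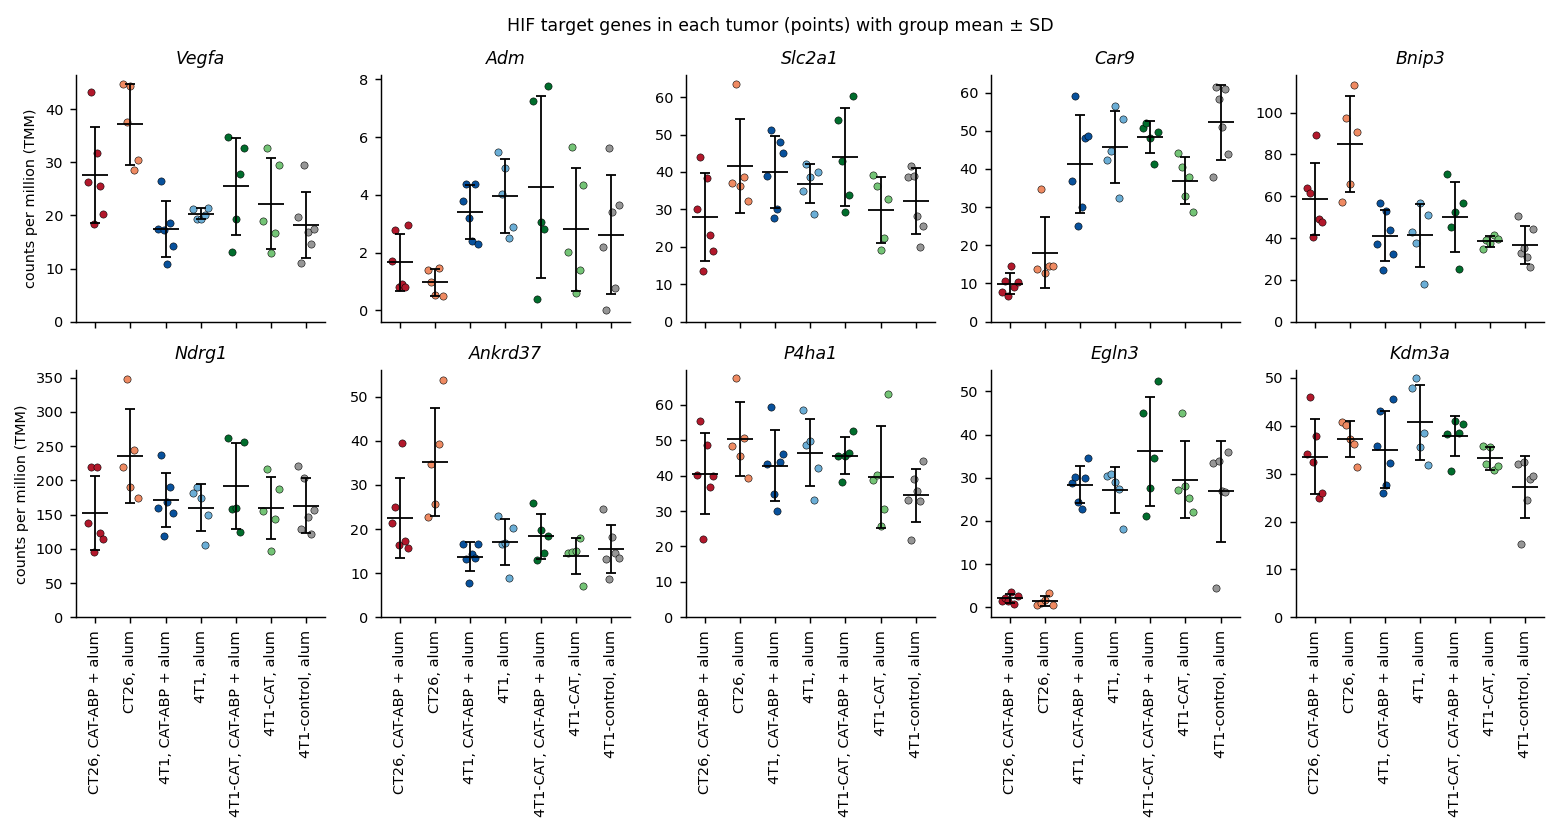
Level in CPM of each of the 10 genes (vertical axes, linear scale) in the 38 tumors, by group (horizontal axes). Points are tumors and bars are group means ± SD. Egln3 lay between 0.483 and 3.64 CPM in the 11 CT26 tumors and between 4.39 and 52.3 CPM in the 27 tumors of the 4T1 lines.

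The first question was whether the 2 tumor lines differ in these genes, and it was asked separately in tumors given alum and in tumors given CAT-ABP + alum, which share no tumor. Egln3, Car9 and Adm were lower in CT26 than in 4T1 tumors in both settings, and Ankrd37 and Vegfa were higher. Bnip3 and Ndrg1 were called higher in CT26 tumors given alum and were not called in tumors given CAT-ABP + alum, whereas Slc2a1, P4ha1 and Kdm3a were called in neither. With alum, 7 of 10 members passed an adjusted p of 0.05 (4 higher and 3 lower in CT26), where 42.4% of 12817 genes did. With CAT-ABP + alum, 5 of 10 passed (2 higher and 3 lower), where 45.5% of 13016 genes did. Calls were thus frequent among all genes, and with CAT-ABP + alum the share of members called was near that background. The median log2 difference, CT26 minus 4T1, was 0.13 over the members with alum and -0.17 with CAT-ABP + alum, against 0.02 and -0.02 over all genes tested. The CPM of the groups did not overlap for Vegfa, Adm, Bnip3 and Egln3 with alum, where 29.9% of genes showed no overlap, and for Car9 and Egln3 with CAT-ABP + alum, where 22.3% did. Adjusted p-values come from the quasi-likelihood test of edgeR, corrected by the Benjamini-Hochberg method over all genes tested. The lines also differed in other markers: the summed T cell markers (5 measured of 6 listed) lay between 43.5 and 128 CPM in CT26 tumors and between 17.8 and 38.2 CPM in 4T1 tumors, and the summed fibroblast markers (7 of 7) lay between 1360 and 2693 CPM in CT26 and between 2360 and 4143 CPM in 4T1. The summed macrophage markers (7 of 7) lay between 700 and 1000 CPM in CT26 and between 487 and 737 CPM in 4T1. The summed neutrophil markers (6 of 6) lay between 63.5 and 172 CPM in CT26 and between 155 and 283 CPM in 4T1. Within the neutrophil list, mean Mmp9 with alum was 12.8 CPM in CT26 and 113 CPM in 4T1. With CAT-ABP + alum it was 16.9 and 112 CPM. S100a8, S100a9 and Cxcr2 also had lower means in CT26 in both settings, by fewer CPM. Csf3r had higher means in CT26 in both, and Retnlg only with CAT-ABP + alum. The difference in the neutrophil sums thus came mostly from Mmp9, and neutrophil content was not measured. The part of these cell types in the members' differences was not tested.

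**Figure D2:**
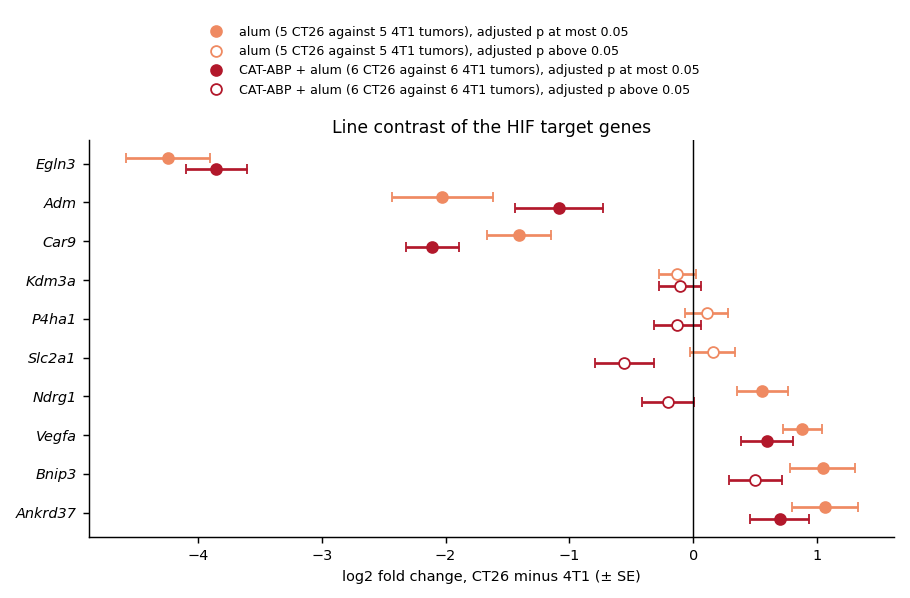
Log2 fold change of each of the 10 genes between the tumor lines (horizontal axis, CT26 minus 4T1, bars ± SE), in tumors given alum (orange) and in tumors given CAT-ABP + alum (red). Filled points passed an adjusted p of 0.05, and Egln3 (-4.24 and -3.85) lay farthest from 0.

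Among the secreted ligands, Vegfa encodes vascular endothelial growth factor A, the main signal for vessel growth. In the 5 CT26 tumors given alum it measured 44.8, 37.6, 44.4, 28.5 and 30.4 CPM, and in the 5 4T1 tumors given alum 21.2, 19.3, 19.3, 20.0 and 21.5 CPM. Every CT26 value lay above every 4T1 value, and the 4T1 values were the tighter set, with an SD of 1.03 CPM against 7.62 CPM in CT26. The difference was 0.88 ± 0.16 on the log2 scale (SE), a 1.84-fold higher level in CT26 (edgeR's quasi-likelihood test, adjusted p = 0.00035). With CAT-ABP + alum, Vegfa lay between 18.3 and 43.2 CPM (median 25.9) in CT26 and between 10.8 and 26.4 CPM (median 17.4) in 4T1. These ranges overlapped, and the difference was 0.60 ± 0.21 (edgeR, adjusted p = 0.027). That call was lost when CT26 replicate 2 or 4, or 4T1 replicate 1, 3 or 6, of the CAT-ABP + alum groups was left out (edgeR, adjusted p between 0.0525 and 0.0883). In the engineered lines Vegfa lay between 12.9 and 34.8 CPM in 4T1-CAT tumors and between 11.0 and 29.4 CPM in 4T1-control tumors.

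Adm encodes adrenomedullin, a vasodilator peptide, and was the member with the fewest counts, between 0 and 55 per tumor. With alum, it measured 1.39, 0.977, 0.547, 1.47 and 0.483 CPM in CT26 and 5.48, 4.04, 4.93, 2.52 and 2.88 CPM in 4T1. The groups did not overlap, and Adm was lower in CT26 by a log2 difference of -2.03 ± 0.41 (edgeR, adjusted p = 0.00088). With CAT-ABP + alum it lay between 0.815 and 2.97 CPM (median 1.31) in CT26 and between 2.30 and 4.37 CPM (median 3.48) in 4T1, with some overlap. The difference was then -1.08 ± 0.36 (edgeR, adjusted p = 0.019), and it did not pass without 4T1 CAT-ABP + alum replicate 2 (0.058) or replicate 5 (0.065) or in 1 model over all 7 groups (0.067). Within the engineered lines the spread was wide, from 0.403 to 7.77 CPM in 4T1-CAT tumors given CAT-ABP + alum. In 4T1-control replicate 2, the shallowest tumor, no count was seen, which allows up to 6.08 CPM of its total count.

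Slc2a1 encodes the glucose transporter GLUT1, and Car9 encodes carbonic anhydrase IX, a cell surface enzyme that acidifies the space around hypoxic cells. Slc2a1 measured 37.1, 63.5, 36.4, 38.8 and 32.1 CPM in CT26 with alum and 34.9, 42.1, 38.7, 28.7 and 40.1 CPM in 4T1 with alum. The groups overlapped, and the difference of 0.16 ± 0.18 did not pass (edgeR, adjusted p = 0.52). With CAT-ABP + alum, Slc2a1 lay between 13.4 and 43.9 CPM (median 26.6) in CT26 and between 27.7 and 51.1 CPM (median 41.9) in 4T1. The difference was -0.56 ± 0.24 (edgeR, adjusted p = 0.064), and it passed without CT26 CAT-ABP + alum replicate 2 (0.017) or 4 (0.040), without 4T1 CAT-ABP + alum replicate 3 (0.047), with no filter on low counts (0.035) and with replicate number as a block (0.010).

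Car9 measured 13.7, 34.7, 12.7, 14.7 and 14.5 CPM in CT26 tumors given alum and 42.5, 44.7, 56.6, 32.4 and 52.9 CPM in 4T1 tumors given alum. A single CT26 tumor, replicate 2, reached into the 4T1 range, and the other 4 lay between 12.7 and 14.7 CPM. The log2 difference was -1.41 ± 0.26 (edgeR, adjusted p = 0.00041). With CAT-ABP + alum, Car9 lay between 6.72 and 14.6 CPM (median 9.76) in CT26 and between 25.1 and 59.0 CPM (median 42.4) in 4T1, with no overlap. The difference there was -2.11 ± 0.22, a 4.31-fold lower level in CT26 (edgeR, adjusted p = 3.19e-07). All 27 tumors of the 4T1 lines had at least 25.1 CPM of Car9, and the highest group mean was that of 4T1-control tumors, 52.2 ± 9.76 CPM (SD, n = 6), though on library totals without TMM it was that of 4T1-CAT tumors given CAT-ABP + alum (53.7 against 51.4 CPM), whereas 4T1-CAT tumors given alum had the lowest among the 4T1 lines, 36.9 ± 6.13 CPM (SD, n = 5).

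Bnip3 encodes a mitochondrial outer membrane receptor for mitophagy, Ndrg1 encodes a stress-induced protein of the NDRG family, and Ankrd37 encodes a small ankyrin-repeat protein. Bnip3 measured 57.3, 97.2, 66.0, 113 and 90.8 CPM in CT26 with alum and 42.8, 37.8, 56.8, 17.9 and 50.8 CPM in 4T1 with alum. The lowest CT26 tumor stood just above the highest 4T1 tumor, and the difference was 1.05 ± 0.26 (edgeR, adjusted p = 0.0048). With CAT-ABP + alum, Bnip3 lay between 40.5 and 89.2 CPM (median 55.3) in CT26 and between 24.5 and 56.7 CPM (median 40.4) in 4T1. That difference was 0.50 ± 0.21 (edgeR, adjusted p = 0.063), and it passed without CT26 CAT-ABP + alum replicate 3 (0.030), without 4T1 CAT-ABP + alum replicate 2 (0.022) or 4 (0.035), with no filter on low counts (0.041) and with replicate number as a block (0.011). Gm45507, the antisense partner of Bnip3, was also higher in CT26, by 1.39 ± 0.23 with alum (edgeR, adjusted p = 0.00015) and by 0.63 ± 0.24 with CAT-ABP + alum (edgeR, adjusted p = 0.042). The part of Gm45507 reads in the Bnip3 counts was not tested.

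Ankrd37 measured 22.8, 34.7, 25.6, 39.4 and 53.6 CPM in CT26 with alum and 22.9, 16.7, 16.8, 8.88 and 20.2 CPM in 4T1 with alum. The lowest CT26 tumor and the highest 4T1 tumor had nearly the same level, and the difference was 1.06 ± 0.27 (edgeR, adjusted p = 0.0047). With the sequencing pools as a term, which rests on the 2 4T1 tumors that shared the pools of CT26, it was 0.82 and no longer passed (edgeR, adjusted p = 0.11). With CAT-ABP + alum, where all tumors shared their pools, Ankrd37 lay between 15.6 and 39.6 CPM (median 19.3) in CT26 and between 7.76 and 16.7 CPM (median 13.9) in 4T1. The difference was 0.70 ± 0.24 (edgeR, adjusted p = 0.023), and it was 0.47 and did not pass without CT26 CAT-ABP + alum replicate 4 (0.070). Ufsp2, on the opposite strand, had a log2 difference of 0.10 ± 0.15 between the lines with alum and of -0.05 ± 0.17 with CAT-ABP + alum.

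Ndrg1 measured 219, 348, 191, 245 and 175 CPM in CT26 with alum and 181, 190, 174, 105 and 150 CPM in 4T1 with alum. The groups overlapped, and the difference of 0.56 ± 0.21 passed narrowly (edgeR, adjusted p = 0.041). The call was lost with pool as a term (0.34, adjusted p = 0.37), in 1 model over all 7 groups (adjusted p = 0.060), and when CT26 alum replicate 1, 2 or 4 or 4T1 alum replicate 1, 3, 4 or 5 was left out (edgeR, adjusted p between 0.0527 and 0.111). With CAT-ABP + alum the difference had the other sign, -0.21 ± 0.21 (edgeR, adjusted p = 0.45), with means of 152 ± 54.2 CPM in CT26 and 172 ± 39.8 CPM in 4T1 (SD, n = 6 each).

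The remaining 3 members encode oxygen-dependent dioxygenases. Egln3 is the prolyl hydroxylase PHD3, which belongs to the family that marks HIF alpha for destruction, and it showed by far the widest separation of the lines among the members. In CT26 tumors given alum it measured 0.595, 0.977, 1.78, 3.23 and 0.483 CPM, from 2 to 13 counts a tumor, and in 4T1 tumors given alum 30.5, 30.9, 29.0, 27.5 and 18.1 CPM, from 69 to 229 counts. The log2 difference was -4.24 ± 0.34, an 18.9-fold lower level in CT26 (edgeR, adjusted p = 1.05e-07). With CAT-ABP + alum it lay between 0.818 and 3.64 CPM (median 1.86) in CT26 and between 22.8 and 34.5 CPM (median 29.4) in 4T1. The groups again did not overlap, and the difference was -3.85 ± 0.25 (edgeR, adjusted p = 6.07e-10). The other 3 groups of 4T1 lines had means of 36.1 ± 12.7, 29.5 ± 8.91 and 26.9 ± 11.6 CPM (SD; 4T1-CAT with CAT-ABP + alum, n = 5, 4T1-CAT with alum, n = 5, and 4T1-control, n = 6). With alum, Egln3 passed under each of the 7 other fits run and without each of the 10 tumors in turn, at log2 differences between -4.66 and -4.01.

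P4ha1 encodes the catalytic subunit of collagen prolyl 4-hydroxylase, and Kdm3a encodes a histone demethylase. P4ha1 had a mean of 50.3 ± 10.5 CPM in CT26 and 46.5 ± 9.51 CPM in 4T1 with alum (SD, n = 5 each), and of 40.5 ± 11.4 CPM and 42.8 ± 10.1 CPM with CAT-ABP + alum (SD, n = 6 each). Its differences of 0.11 ± 0.17 and -0.13 ± 0.19 did not pass (edgeR, adjusted p = 0.64 and 0.61). Kdm3a had means of 37.2 ± 3.75 CPM and 40.7 ± 7.88 CPM with alum and of 33.5 ± 7.84 CPM and 35.0 ± 8.04 CPM with CAT-ABP + alum, in the same order. Its differences were -0.13 ± 0.15 and -0.11 ± 0.17 (edgeR, adjusted p = 0.52 and 0.64). The Kdm3a difference with alum lay between -0.40 and -0.11 over the 7 other fits run, and it passed in none. Over all 38 tumors, levels lay between 15.3 and 49.9 CPM for Kdm3a and between 21.9 and 67.4 CPM for P4ha1.

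The rest of the HIF pathway was read from lists of regulators, other targets and glycolytic enzymes. The counts below stand against the 42.4% (alum) and 45.5% (CAT-ABP + alum) of all genes called. Of 12 regulators tested, 3 were higher and 0 lower in CT26 in each contrast. Rbx1, a subunit of the VHL ubiquitin ligase, was higher by 1.18 ± 0.23 with alum and by 1.25 ± 0.20 with CAT-ABP + alum (edgeR, adjusted p = 0.00071 and 7.12e-05). Egln2, a paralog of Egln3, was higher by 0.68 ± 0.17 and 0.74 ± 0.16 (edgeR, adjusted p = 0.0053 and 0.0011), in the opposite direction to Egln3. Hif1a, the alpha subunit itself, had differences of 0.26 ± 0.23 and -0.20 ± 0.14 and was not called (edgeR, adjusted p = 0.38 and 0.27). Of the other HIF targets, 13 were higher and 8 lower of 36 tested with alum, and 7 were higher and 13 lower of 37 tested with CAT-ABP + alum, and 13 were called in the same direction in both. Higher in both were Vldlr, a lipoprotein receptor, by 4.70 ± 0.26 and 4.44 ± 0.20, Angptl4, an inhibitor of lipoprotein lipase, by 1.43 ± 0.19 and 0.99 ± 0.16, Higd1a, a mitochondrial protein, by 1.44 ± 0.26 and 1.01 ± 0.18, and Hilpda, a lipid droplet protein, by 1.19 ± 0.23 and 1.16 ± 0.21. Lower in both were Gys1, glycogen synthase, by -1.34 ± 0.13 and -1.64 ± 0.17, Loxl2, a lysyl oxidase, by -1.20 ± 0.17 and -1.38 ± 0.17, Stc1, stanniocalcin, by -1.48 ± 0.18 and -1.53 ± 0.25, and Trf, transferrin, by -1.86 ± 0.24 and -0.92 ± 0.18. Of 11 glycolytic genes, 6 were higher and 0 lower with alum (median 0.72) and 6 higher and 1 lower with CAT-ABP + alum (median 0.47), where the medians of the members were 0.13 and -0.17. Members and other HIF targets thus moved both ways between the lines, and the called glycolytic genes were, apart from Pfkl, higher in CT26.

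**Figure D3:**
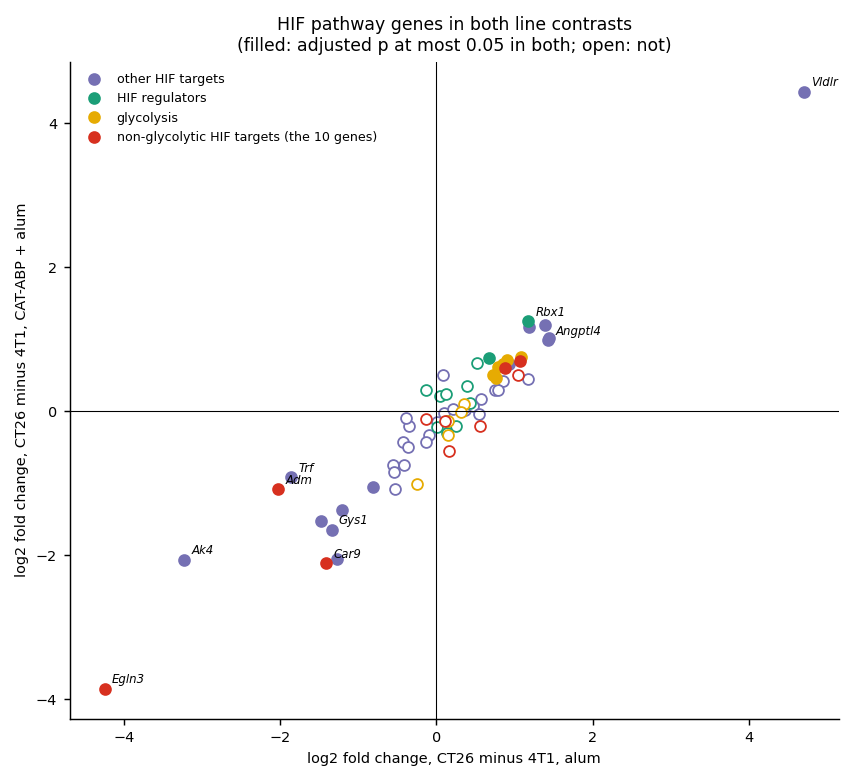
Log2 fold change between the lines, CT26 minus 4T1, in tumors given alum (horizontal axis) and in tumors given CAT-ABP + alum (vertical axis), for the 10 genes and the 3 lists tested in both. Each point is a gene, filled where it passed an adjusted p of 0.05 in both contrasts; Vldlr (4.70 and 4.44) and Egln3 (-4.24 and -3.85) lay at opposite ends.

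The next question was whether catalase changed these genes. In none of the catalase comparisons was a member called here. The study, which used DESeq2, did report Car9 among the genes significantly lower with EC CAT in CT26. DESeq2 as run here did not call Car9, and the decrease estimated here was larger than the one the study gave. The study also reported more genes for EC CAT in CT26 and for IC CAT than DESeq2 called here. The reason for these differences was not tested. How many genes of any kind were called depended on the fit. With EC CAT in CT26, 0% of 12830 genes passed, with EC CAT in 4T1 0% of 13092, with EC CAT in 4T1-CAT 0% of 13093, and with IC CAT (4T1-CAT against 4T1-control, both with alum) 0% of 12534. At an unadjusted p under 0.05, edgeR gave 311, 377, 2000 and 637 genes in these comparisons, and DESeq2 called 1, 0, 218 and 6 genes at an adjusted p of 0.05, among which was no member. With no filter on low counts, edgeR called 1, 16, 47 and 131 genes. With both catalases, 4T1-CAT tumors given CAT-ABP + alum against 4T1-control tumors, 0.0235% of 12781 genes passed (3 genes, 2162 at an unadjusted p under 0.05) and no member did. DESeq2 called 487 genes there, edgeR called 532 with no filter on low counts and 142 without libraries of low depth, and leaving out 1 tumor at a time gave between 0 and 575 (575 without 4T1-control replicate 3 and 131 without replicate 2), again with no member called. That comparison shares its controls with the IC CAT comparison and its treated tumors with the comparison of EC CAT in 4T1-CAT.

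**Figure D4:**
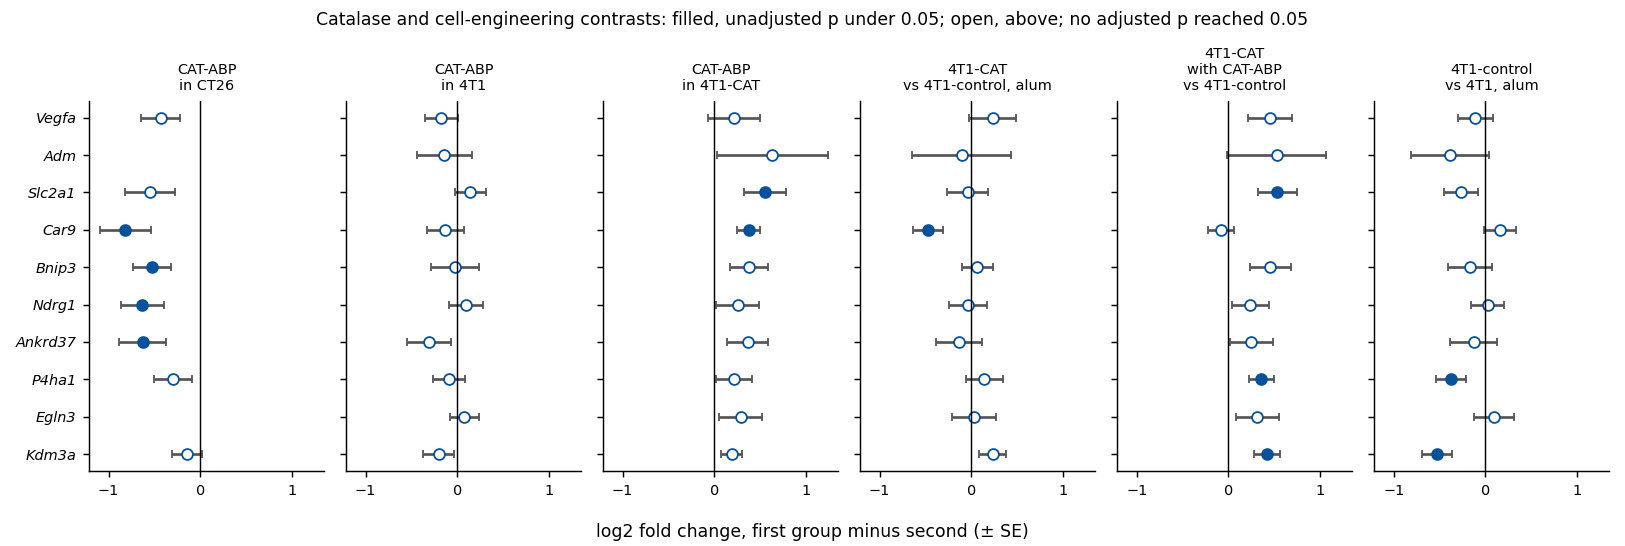
Log2 fold change of the 10 genes (horizontal axis, first group minus second, bars ± SE) in 5 catalase comparisons and between 4T1-control and 4T1 tumors given alum. Filled points had an unadjusted p under 0.05; no adjusted p reached 0.05. Egln3 and Adm were not tested in CT26 because of low counts.

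In CT26, 8 members passed the filter on low counts, and all 8 had a negative log2 difference with EC CAT, from -0.15 to -0.82 (median -0.54), where the median over all genes tested was -0.0038. The sign was negative for all 8 under each of the 6 other fits run and without each tumor in turn. These fits reuse the same tumors, and members tended to deviate together within tumors, so the 8 signs are not independent. Car9 had the value farthest from 0, -0.82 ± 0.28. Of its tumors, 5 of the 6 treated tumors lay between 6.72 and 10.7 CPM, below the lowest alum tumor at 12.7 CPM, and the sixth had 14.6 CPM. Without the alum tumor replicate 2, which had 34.7 CPM, the Car9 value was -0.48 and that of Slc2a1 was -0.35. The value of P4ha1 was -0.18 without that tumor and -0.17 without CAT-ABP + alum replicate 3. That of Kdm3a was -0.0743 without CAT-ABP + alum replicate 5 and -0.26 without replicate 2, and it moved by over 1.5 times without replicate 6 too. Ndrg1 had -0.63 ± 0.24, Ankrd37 -0.63 ± 0.26, Slc2a1 -0.55 ± 0.27, Bnip3 -0.53 ± 0.21, Vegfa -0.43 ± 0.21, P4ha1 -0.30 ± 0.21 and Kdm3a -0.15 ± 0.16. Of these, Car9, Ndrg1, Ankrd37 and Bnip3 had an unadjusted p under 0.05, where 311 of 12830 genes did. None of the 8 members passed after adjustment (edgeR, adjusted p = 1.00 for each). The ranges of treated and alum tumors overlapped for all 8. Glycolytic genes had 11 of 11 negative values (median -0.25) and the other HIF targets 29 of 37 (median -0.17), with 0 called in either list. Egln3 and Adm, which were not tested here, had mean levels of 2.05 ± 1.02 and 1.67 ± 0.995 CPM with EC CAT (SD, n = 6) and of 1.41 ± 1.14 and 0.973 ± 0.458 CPM without (SD, n = 5), so that their means lay the other way.

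In 4T1, EC CAT gave values nearer 0, with 7 of 10 members negative, a range of -0.31 (Ankrd37) to 0.14 (Slc2a1) and a median of -0.11, against -0.0030 over all genes. No member had an unadjusted p under 0.05. The difference between the effects of EC CAT in CT26 and in 4T1 was tested as an interaction, in which 0% of 14160 genes passed (509 at an unadjusted p under 0.05, 0 by DESeq2) and no member did. The interaction, CT26 minus 4T1, was -0.74 ± 0.32 for Ndrg1, -0.69 ± 0.33 for Slc2a1, -0.68 ± 0.35 for Car9 and -0.51 ± 0.36 for Bnip3 (edgeR, adjusted p = 1.00 for each). It was positive for Adm (0.97 ± 0.57), Egln3 (0.42 ± 0.45) and Kdm3a (0.04 ± 0.24). A different effect of EC CAT on these genes in the 2 lines was not detectable with these tumors.

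In 4T1-CAT tumors, EC CAT on top of IC CAT gave positive values for 10 of 10 members, from 0.19 (Kdm3a) to 0.63 (Adm), with a median of 0.32 against -0.00066 over all genes, and the sign was positive for all 10 under each of the 6 other fits and without each tumor in turn. Here too the fits reuse the same tumors and the 10 signs are not independent. The values of 7 members, all but Car9, Slc2a1 and Kdm3a, moved by over 1.5 times without 1 tumor, for example from 0.079 (without CAT-ABP + alum replicate 1) to 0.42 (without alum replicate 2) for Vegfa and from 0.12 (without CAT-ABP + alum replicate 5) to 0.50 (without alum replicate 2) for Egln3. Car9 measured 50.8, 51.9, 48.1, 41.2 and 49.6 CPM with EC CAT and 44.3, 40.6, 32.9, 37.8 and 28.8 CPM without. A single treated tumor, replicate 4, lay within the range of the alum tumors, and the difference was 0.38 ± 0.12 (edgeR, adjusted p = 0.21). Slc2a1 measured 54.0, 42.9, 29.4, 33.8 and 60.3 CPM with EC CAT and 39.2, 36.1, 19.1, 22.4 and 32.7 CPM without, with overlap, and differed by 0.55 ± 0.23 (edgeR, adjusted p = 0.27). The other HIF targets were positive in 20 of 37 and the glycolytic genes in 8 of 11, with medians of 0.02 and 0.09. Several marker lists for other cell types had lower median sums with EC CAT, among them 3118 against 3481 CPM for the summed fibroblast markers, 676 against 798 CPM for macrophage, 29.4 against 46.5 CPM for T cell and 207 against 308 CPM for skeletal muscle markers. Median sums were higher with EC CAT for epithelial (2055 against 1918 CPM), proliferation (1150 against 1077 CPM) and leukocyte markers (Ptprc alone, 64.5 against 61.7 CPM). Within the proliferation list, Mki67 and Top2a had higher means with EC CAT. Ccnb1 (119 against 132 CPM) and Cdk1 (329 against 386 CPM) had lower means. The ranges of the sums overlapped in each of these lists, and the part of the lists in the members' difference was not tested. The members' median had opposite signs under EC CAT in CT26 and in 4T1-CAT, and the difference between these effects was not tested.

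With IC CAT, 5 members had positive and 5 negative values, with a median of -0.0026 against -0.0053 over all genes. Car9 was the only member with an unadjusted p under 0.05: it lay between 37.8 and 61.4 CPM (median 54.5) in 4T1-control and between 28.8 and 44.3 CPM (median 37.8) in 4T1-CAT tumors given alum. The ranges overlapped, and the difference, 4T1-CAT minus 4T1-control, was -0.47 ± 0.16 (edgeR, adjusted p = 0.71). With both catalases, 9 of 10 members had positive values (median 0.39 against 0.025 over all genes), led by Slc2a1 at 0.53 ± 0.21, Adm at 0.53 ± 0.54, Bnip3 at 0.46 ± 0.22, Vegfa at 0.45 ± 0.24 and Kdm3a at 0.43 ± 0.14 (edgeR, adjusted p = 0.20, 0.68, 0.30, 0.36 and 0.14), and Car9 had -0.08 ± 0.14. Of the 12 libraries of 4T1-control tumors, 4 were of low depth, and without the libraries of low depth the members stood at 5 positive and 5 negative with IC CAT and at 9 positive and 1 negative with both catalases, though Slc2a1 and Egln3 exchanged signs in the first.

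Engineering, GFP and the doxycycline diet together were read from 4T1-control against 4T1 tumors, both with alum, where 0% of 12431 genes passed (1307 at an unadjusted p under 0.05, 15 by DESeq2). Members were negative in 7 of 10 (median -0.15 against -0.013 over all genes). Kdm3a measured 47.9, 49.9, 35.6, 38.5 and 31.7 CPM in 4T1 tumors and lay between 15.3 and 32.5 CPM (median 29.2) in 4T1-control tumors. A single 4T1 tumor, replicate 5, lay inside the range of the controls, and the difference was -0.53 ± 0.16 (edgeR, adjusted p = 0.26). Of the 5 4T1 tumors, 2 came from the other pair of sequencing pools, replicates 1 and 2, which had the highest values (47.9 and 49.9 CPM). The Kdm3a difference lay between -0.55 and -0.33 over the 7 other fits. P4ha1 followed with -0.38 ± 0.16 (edgeR, adjusted p = 0.41). Over all 5 groups of 4T1 lines, an F-test with edgeR called 0.382% of 13875 genes (53) and no member. That count was 414 by DESeq2, 435 with no filter on low counts and 0 with pool as a term, and Kdm3a had the smallest adjusted p among the members by edgeR, 0.26.

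The order of the group means set CT26 apart for some members only. Egln3, Adm and Car9 had their lowest 2 means in the CT26 groups, and Vegfa, Ankrd37 and Bnip3 their highest 2. On library totals without TMM, the order changed for the last 3, with CT26 tumors given CAT-ABP + alum below 4T1-CAT tumors given CAT-ABP + alum (25.0 against 28.9 CPM for Vegfa, 20.0 against 20.4 for Ankrd37 and 52.2 against 55.8 for Bnip3). For Ndrg1, the CT26 groups stood at both ends, 236 ± 68.5 CPM with alum and 152 ± 54.2 CPM with CAT-ABP + alum. Slc2a1 was lowest in CT26 tumors given CAT-ABP + alum, 28.0 ± 11.7 CPM, and highest in 4T1-CAT tumors given CAT-ABP + alum, 44.1 ± 13.1 CPM. Kdm3a and P4ha1 were lowest in 4T1-control tumors, 27.2 ± 6.45 and 34.4 ± 7.45 CPM. Among the 5 groups of 4T1 lines no member was called in any comparison, and the order of their means there was not separated by any test.

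**Figure D5:**
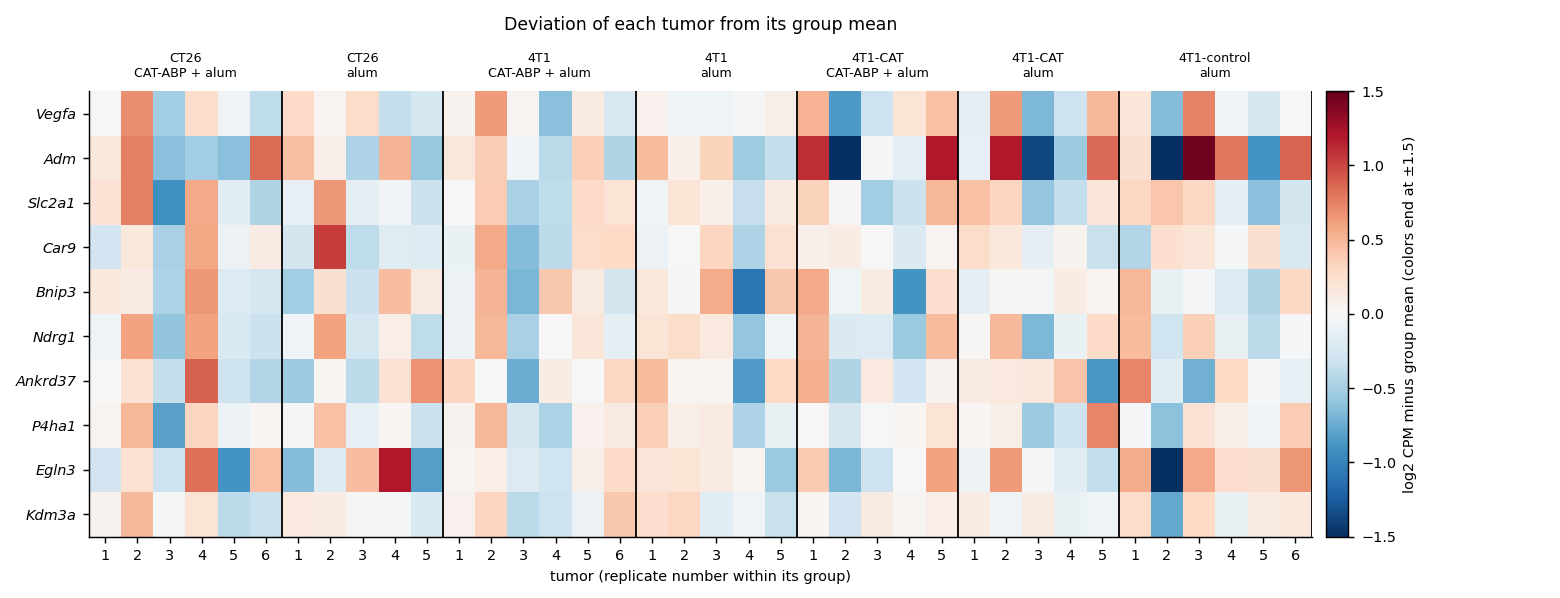
Log2 CPM of each of the 10 genes (rows) in each of the 38 tumors (columns, numbered by replicate within a group), as the difference from the mean of the tumor's group (color, ending at ±1.5). Columns of one color across rows are tumors in which many members deviated together, such as replicate 2 (high) and 3 (low) of 4T1 tumors given CAT-ABP + alum.

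Within groups, single tumors tended to be high or low in several members at once. In 4T1 tumors given CAT-ABP + alum, replicate 2 was the highest of its group in 7 members and replicate 3 the lowest in 6. In 4T1 tumors given alum, replicate 4 was lowest in 7 members, and in CT26 tumors given CAT-ABP + alum replicate 3 was lowest in 7 and replicate 2 highest in 5. In CT26 tumors given alum, replicate 5 was lowest in 6, and in 4T1-CAT tumors replicate 2 was lowest in 6 with CAT-ABP + alum and replicate 3 in 5 with alum. In 4T1-control tumors, replicate 2 was lowest in 5. That last tumor was the shallowest of all, with 493044 counts, and the others named here had between 3832693 and 9077549. Each member was also compared with the mean of the other 9, all centred on their group means, over the 38 tumors. All 10 correlations were positive. Ndrg1 followed the others most closely (Pearson r = 0.86, Spearman rho = 0.89), followed by P4ha1 (r = 0.76, rho = 0.78), and without the 2 tumors farthest from the median r was 0.91 and 0.73. Car9 (r = 0.35, rho = 0.35) and Ankrd37 (r = 0.30, rho = 0.31) followed them least. For Car9, r was 0.62 over the 11 CT26 tumors and 0.20 over the 27 tumors of the 4T1 lines. These values are descriptions with no test, since the genes of a tumor share its libraries and normalization, and the correlation of a member with the log2 total count of the tumor lay between -0.26 (Bnip3) and 0.44 (Egln3). Among 6095 genes outside the lists with a mean of at least 20 CPM, those most like the mean of the members were Gm45507 (r = 0.81), the antisense partner of Bnip3, the transcription factor gene Fosl2 (r = 0.78), the metalloproteinase gene Adam8 (r = 0.78), the tropomyosin gene Tpm4 (r = 0.78) and the integrin gene Itgb1 (r = 0.77).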

How the data were processed

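The authors made RNA libraries from whole tumors by high-throughput 3′ digital gene expression (HT3DGE), with 2 technical libraries per tumor, and deposited a table of estimated counts per gene from the Smart-seq2 pipeline on Terra, of which 39.7% of the values above 0 were not whole. The aligner, annotation, use of molecular identifiers and use of strand are not given in the sources used here; 55450 of 55536 gene identifiers with their versions matched GENCODE M21. The authors left out some technical libraries of low depth without naming them, and every library in the table was used here. Symbols came from the deposited gene table. The estimated counts of the technical libraries were added per tumor, rounded to whole numbers and tested with edgeR 4.0.16 in R 4.3.3 (filterByExpr with a minimum count of 10, TMM normalization, glmQLFit and glmQLFTest, adjusted p of at most 0.05), fitting only the groups compared. Total counts ran from 46233 to 6958626 per library, and the number of counts limits the precision of low genes such as Adm. CPM used a prior count of 2 only on the log2 scale and counts in 14646 genes as the total. Alternatives were DESeq2 1.42.0, RLE normalization, no filter, 1 model over 7 groups, replicate number as a block, sequencing pool as a term, leaving out libraries of low depth, and leaving out each tumor. The procedure was tested on simulated data. All 10 members are described. Outside the members, the text names at most 4 genes a direction from each list, by the larger adjusted p of the contrasts between lines, and the 5 genes most like the members' mean; Hif1a and Pfkl were chosen after their values were seen. The members and gene lists were chosen with earlier results of these data known.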

Additional observations from a re-analysis of the deposited data

Results flagged for a closer look

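In 6 of the 70 combinations of a gene and a group, 1 tumor stood apart from its group by Dixon's test, which chance alone gives in about 1 of 20 groups. In CT26 tumors given alum, replicate 2 had 34.7 CPM of Car9, where the next tumor had 14.7, and 63.5 CPM of Slc2a1, where the next had 38.8. Egln3 stood apart in 3 groups. It was low in replicate 5 of the 4T1 tumors given alum (18.1 CPM, the next 27.5), high in replicate 2 of the 4T1-CAT tumors given alum (44.9 CPM, the next 28.0), and low in replicate 2 of the 4T1-control tumors (4.39 CPM, the next 26.7), which had 2 counts of Egln3 among 493044 in all. For that 4T1-CAT tumor and replicate 3 of its group, 1 field of the deposited sample table gives the second libraries the same index tag, and another field gives them different tags. Kdm3a was low among 4T1-CAT tumors in replicate 2 of the group with CAT-ABP + alum (30.6 CPM, the next 38.3).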

How the results depend on the processing

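Of 88 log2 differences of members over 9 comparisons, all 88 kept direction and call with DESeq2 and with RLE normalization, and the calls lost or gained elsewhere stand beside the results above. DESeq2 in place of edgeR called 1 gene for CAT-ABP in CT26, 218 in 4T1-CAT, 6 for 4T1-CAT against 4T1-control, 487 for both catalases, 15 for 4T1-control against 4T1 and 414 over the 5 groups of 4T1 lines. With no filter on low counts, the counts were 1 for CAT-ABP in CT26, 16 in 4T1, 47 in 4T1-CAT, 131 for 4T1-CAT against 4T1-control, 532 for both catalases, 130 for 4T1-control against 4T1, 2 for the interaction and 435 over the 5 groups. In 1 model over all 7 groups, they were 31 for both catalases, 10 for 4T1-control against 4T1 and 105 over the 5 groups, and without libraries of low depth 142, 14 and 86 in that order. Sequencing pool as a term left 0 genes over the 5 groups, and it could not be fitted in 5 comparisons, each of which lies within 1 pair of pools. The cause of these moves was not tested.

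With pool as a term, P4ha1 reversed to -0.11 between the lines with alum, Bnip3 to 0.0072, Egln3 to -0.093 and Ndrg1 to -0.11 for CAT-ABP in 4T1, and Ankrd37 to 0.034 for 4T1-control against 4T1. Without libraries of low depth, Slc2a1 reversed to 0.021 and Egln3 to -0.068 for 4T1-CAT against 4T1-control. None of these values was called under either fit.

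Leaving out 1 tumor at a time changed some small values in sign. Between the lines with alum, Slc2a1 ranged from -0.027 to 0.23 and P4ha1 from -0.0079 to 0.20, and with CAT-ABP + alum Kdm3a ranged from -0.20 to 0.0073 and P4ha1 from -0.23 to 0.019. For CAT-ABP in 4T1, Bnip3 ranged from -0.23 to 0.13, Egln3 from -0.030 to 0.13, Ndrg1 from -0.027 to 0.19 and P4ha1 from -0.21 to 0.0056. For 4T1-CAT against 4T1-control, Slc2a1 ranged from -0.16 to 0.081, Ankrd37 from -0.27 to 0.042, Bnip3 from -0.031 to 0.18, Egln3 from -0.19 to 0.11, Ndrg1 from -0.17 to 0.10, P4ha1 from -0.078 to 0.25 and Adm from -0.59 to 0.13. For 4T1-control against 4T1, Ankrd37 ranged from -0.29 to 0.0044, Egln3 from -0.015 to 0.18 and Ndrg1 from -0.071 to 0.13, and the interaction of Kdm3a ranged from -0.077 to 0.13. The number of genes called ranged from 0 to 1 for CAT-ABP in 4T1-CAT and for 4T1-CAT against 4T1-control, from 0 to 575 for both catalases (575 without 4T1-control replicate 3), from 0 to 6 for 4T1-control against 4T1 (6 without 4T1-control replicate 2) and from 21 to 95 over the 5 groups (21 without 4T1-control replicate 6 and 95 without replicate 2).

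Tumors with the same replicate number were not treated as pairs, since in each comparison at most 2 such pairs deviated together (r above 0.1). Over all comparisons, r between same-numbered tumors lay between -0.288 and 0.334. Such correlations cannot exclude that tumors were paired in the experiment. With replicate number as a block, the counts of genes were 3 for CAT-ABP in 4T1-CAT, 1 for both catalases and 26 over the 5 groups, Bnip3 reversed to 0.034 for CAT-ABP in 4T1 and Egln3 to -0.029 for 4T1-control against 4T1. Depth limits Adm in all groups and Egln3 in CT26, and whole tumors give no level per cell.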
